A study of Mus musculus with 96 samples.

Results

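The comparison described here is candesartan against vehicle in the thalamus of uninjured mice, 3 days after a sham procedure. It rests on 8 of the 96 bulk RNA-seq libraries of the series, 4 named Sham + CD (candesartan) and 4 named Sham + VH (vehicle), which were chosen by their labels for region, time point, drug and injury, and every gene in the count table was considered. The series covers 3 brain regions (hypothalamus, thalamus and hippocampus) and 2 times, 3 and 29 days post-injury (dpi), each with sham and injured mice given either drug or vehicle. The mice were adult male C57BL/6 animals of 8 to 10 weeks, 5 to a cage. Sham mice had the anesthesia and the cut in the scalp but no opening of the skull, and the injured mice used below for comparison had a controlled cortical impact (TBI + VH and TBI + CD). Candesartan was given intraperitoneally at 0.1 mg/kg 6, 24 and 48 hours after the procedure, and vehicle was saline with sodium carbonate. The thalamus at 29 dpi came from other mice, which had the drug from an osmotic minipump after the first injection. All mice were perfused with saline before dissection, and the RNA of a whole dissected thalamus on the injured side, or on the matching side in sham mice, made 1 library, so the groups measure a mixture of cell types.

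Candesartan blocks the type 1 angiotensin II receptor. In the renin-angiotensin system, renin cuts angiotensinogen to angiotensin I, angiotensin-converting enzyme makes angiotensin II from it, and angiotensin II acts through the receptor that candesartan blocks to constrict vessels and retain salt. The brain makes its own angiotensinogen, for the most part in astrocytes. The thalamus relays sensory and motor signals to the cortex through glutamatergic neurons, and it is crossed by myelinated fibers, so transcripts of oligodendrocytes, the glia that make myelin, are among its most abundant.

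The 4 Sham + CD libraries held 21952016 to 29956621 counts (median 24042776) and the 4 Sham + VH libraries 22889843 to 26100591 (median 24556780). At this depth the median standard error (SE) of a log2 fold change was 0.0987 over the 16762 genes tested and 0.0895 over the 14919 with a mean of at least 1 CPM (counts scaled by library size). The thalamic markers Tcf7l2, Slc17a6, Prkcd and Rora were present in all 8 libraries, between 229 CPM (Tcf7l2 in Sham + CD replicate 2) and 881 CPM (Prkcd in the same library). Transcripts of neighbouring tissue varied among libraries of the same group. Sham + VH replicate 4 held 98.0 CPM of growth hormone (Gh), 14.9 CPM of prolactin (Prl) and 26.3 CPM of Pomc, which are pituitary and hypothalamic hormones, whereas Gh was at most 3.35 CPM in any of the other libraries. Oxytocin (Oxt) reached 99.6 CPM in that library, 93.0 CPM in Sham + VH replicate 3 and no more than 15.3 CPM elsewhere. Transthyretin (Ttr), the main transcript of the choroid plexus, was at 1028 CPM in Sham + VH replicate 1, at 3184 CPM in Sham + VH replicate 3, at 611 CPM in Sham + CD replicate 3 and at no more than 39.9 CPM in the other 5 libraries. The first principal component of the 8 libraries took 24.0% of the variance and the second 22.5%, and Gh, Prl, Pomc, Ttr, Kl and Oxt were among the genes with the largest loadings.

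No gene passed the edgeR test, the main test here. By the quasi-likelihood F test of edgeR, 0 of 16762 genes (0%) had both an FDR (false discovery rate, Benjamini-Hochberg) below 0.05 and a log2 fold change beyond 0.32 in either direction, the limits used in the study, and the smallest FDR was 0.428. An unadjusted p below 0.05 was reached by 1152 genes (6.87%), of which 667 (3.98% of those tested) were higher and 485 (2.89%) lower in Sham + CD. For 822 genes (4.9%) every library of a group lay above every library of the other, so that the groups did not overlap, with 482 higher (2.88%) and 340 lower (2.03%). DESeq2, the program the study itself used, was run here as an alternative on the same counts with the same limits. It called 9 of 12907 genes (0.0697%), 6 of them higher (0.0465%), with FDRs of 0.0038 to 0.0499. These were Zeb2, Kif13b, Rasgrp3, Gjc3, Adamts4 and St18, which were higher in Sham + CD, and Fhad1, Bdnf and Mest, which were lower. The study's supplement lists Kif13b, Gjc3 and Adamts4 for this comparison. All 9 genes called by DESeq2 were also among the 20 genes described next, whose edgeR FDRs ran from 0.428 to 0.594. Among genes without overlap and with a mean of at least 1 CPM, these 20 are the 10 higher and the 10 lower ones of smallest edgeR p. Since p and overlap chose them, their values are a description. The genes with small p were mostly higher in Sham + CD: 9 of the first 10, 39 of the first 50 and 77 of the first 100, against 49.5% of all genes tested.

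Zeb2 had the smallest p. It encodes a zinc-finger transcription factor that oligodendrocyte precursors need to mature and form myelin, and lies on mouse chromosome 2 (GRCm38, chr2:44983632-45117395, minus strand). With the libraries in the order of their replicate numbers, as throughout, its level was 51.3, 53.8, 53.1 and 49.6 CPM for Sham + VH and 62.1, 66.4, 65.3 and 67.5 CPM for Sham + CD. Every Sham + CD library was thus above every Sham + VH library, and the log2 fold change was 0.33 (SE 0.0599, edgeR adjusted p = 0.428). In the annotation 4 further genes lie on the opposite strand of Zeb2, including Zeb2os, and how the counting treated strand is not given in the sources used here.

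Kif13b, a kinesin-3 family motor that carries membrane cargo along microtubules (chr14:64647265-64809617), stood at 44.9, 46.9, 44.4 and 41.6 CPM with vehicle and 54.6, 63.7, 57.4 and 62.7 CPM with candesartan. Every candesartan library lay above every vehicle library, and the log2 fold change was 0.42 (SE 0.0821, adjusted p = 0.428). Rasgrp3, a guanine nucleotide exchange factor for Ras proteins (chr17:75435896-75529054), measured 16.5, 17.2, 16.6 and 16.7 CPM with vehicle and reached 20.8, 22.8, 20.3 and 23.4 CPM with candesartan (log2 fold change 0.38, SE 0.073, adjusted p = 0.428). Serinc5, a membrane protein of the serine incorporator family that is abundant in myelinating cells (chr13:92611091-92711947), measured 84.3, 78.2, 83.5 and 73.0 CPM against 94.3, 100.2, 94.8 and 98.4 CPM (log2 fold change 0.28, SE 0.0559). DESeq2 gave Serinc5 an FDR below 0.05, but its difference was under the fold limit.

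Gjc3 encodes a connexin of oligodendrocytes and Schwann cells (chr5:137953461-137963098). It measured 82.4, 71.7, 69.7 and 59.3 CPM in Sham + VH and 89.6, 104, 95.6 and 98.9 CPM in Sham + CD, a log2 fold change of 0.46 (SE 0.0914, adjusted p = 0.428). Adamts4, a secreted protease that cuts aggrecan and related matrix proteoglycans and is made by oligodendrocytes in the brain (chr1:171250421-171260637), went from 31.9, 33.0, 29.5 and 21.4 CPM to 40.9, 46.8, 45.5 and 44.2 CPM. With a log2 fold change of 0.61 (SE 0.134, adjusted p = 0.494) it had the largest difference among those of the 20 genes that were higher and above 5 CPM. Sham + VH replicate 4, the library with pituitary transcripts, was the lowest of the 8 for both genes. Without it the log2 fold change was 0.38 for Gjc3 and 0.49 for Adamts4. St18, a zinc-finger factor of the Myt1 family (chr1:6487231-6860940), measured 10.8, 11.3, 12.2 and 10.9 CPM against 13.3, 14.7, 14.1 and 16.2 CPM (log2 fold change 0.36, SE 0.0771).

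The remaining higher genes were Creb5, En2 and Otud7b. The bZIP transcription factor Creb5 was higher by 0.59 on the log2 scale (SE 0.134) at low levels of 2.29 to 2.85 CPM with vehicle and 3.49 to 4.63 CPM with candesartan. En2, a homeobox factor of the midbrain and cerebellum, had the largest difference of the 20 genes, 1.06 (SE 0.245), at 0.983, 0.913, 0.705 and 1.03 CPM with vehicle and 2.72, 1.6, 1.91 and 1.28 CPM with candesartan. En1, its relative in the midbrain list, went the same way (log2 fold change 1.81, SE 0.772, adjusted p = 0.702) with 3.53 CPM in Sham + CD replicate 1 and at most 1.08 CPM in the others, and without that library its log2 fold change was 0.72. In that library tyrosine hydroxylase (Th), the dopamine-synthesis enzyme, was also at 70.7 CPM, against 8.9 to 25.8 CPM in the other 7. Of the 8 midbrain and dopamine markers 7 were higher in Sham + CD (median log2 fold change 0.68), 1 with p below 0.05, and the part of midbrain tissue in the En2 difference was not tested. Otud7b, a deubiquitinase, was higher by 0.28 (SE 0.0656).

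**Figure D1:**
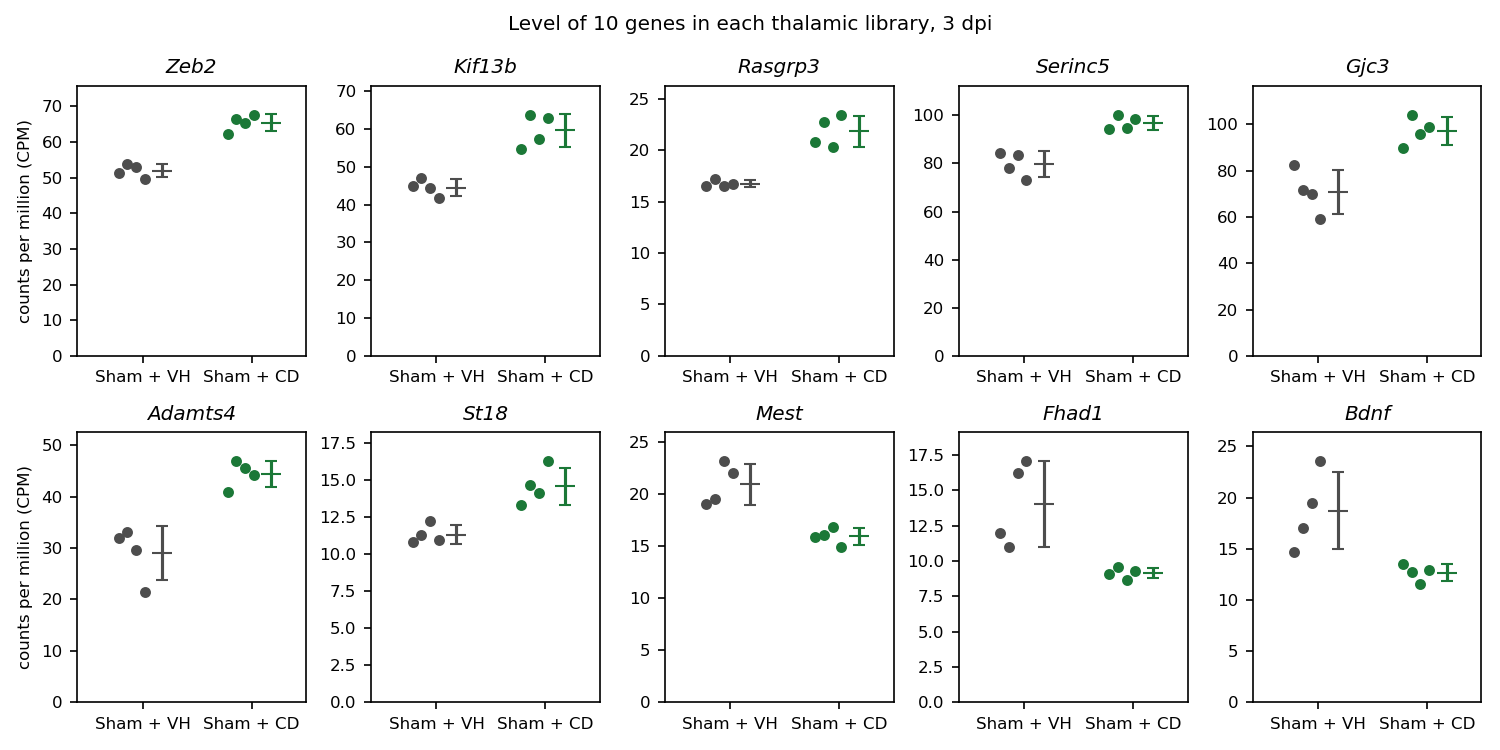
Level of 10 genes in CPM (vertical axis, from 0) in each sham thalamic library at 3 dpi. Dots are libraries 1 to 4 from left to right in Sham + VH (grey) and Sham + CD (green), and the bars beside them give the mean ± SD. In every panel the 4 dots of a group lie clear of the other group, as for Zeb2 at 51.9 ± 1.89 CPM with vehicle and 65.3 ± 2.35 CPM with candesartan, while for Fhad1 and Bdnf the vehicle dots spread more than the candesartan dots.

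Among the lower genes were a growth factor, an imprinted gene and genes of cilia. Bdnf, the neurotrophin brain-derived neurotrophic factor (chr2:109674700-109727007), measured 14.7, 17.0, 19.5 and 23.5 CPM in Sham + VH and 13.5, 12.7, 11.6 and 12.9 CPM in Sham + CD. The log2 fold change was -0.56 (SE 0.129, adjusted p = 0.494), and it was -0.43 without Sham + VH replicate 4, the highest library. Mest, an imprinted gene expressed from the paternal copy (chr6:30723547-30748465), measured 19.1, 19.6, 23.2 and 22.1 CPM against 15.9, 16.1, 16.9 and 14.9 CPM (log2 fold change -0.39, SE 0.0888). It overlaps Copg2 on the opposite strand. Nppc, the precursor of C-type natriuretic peptide, was lower by 0.52 on the log2 scale (SE 0.131) with 3.81 to 4.97 CPM in vehicle and 2.82 to 3.12 CPM in candesartan libraries. Cd55, a complement decay-accelerating factor, had a log2 fold change of -0.40 (SE 0.105).

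Fhad1, a gene of forkhead-associated domains whose transcripts are found in cells with motile cilia (chr4:141890438-142015082), went from 12, 11, 16.2 and 17.0 CPM to 9.04, 9.54, 8.68 and 9.31 CPM. Its log2 fold change was -0.62 (SE 0.141, adjusted p = 0.494) and, with Sham + VH replicates 3 and 4 left out, -0.33. The radial spoke protein Rsph9 was also highest in those 2 libraries, with 9.58, 9.89, 15.8 and 14.4 CPM in vehicle and 7.66 to 8.22 CPM in candesartan libraries (log2 fold change -0.63, SE 0.168, and -0.29 without that pair). Sulf1, an extracellular sulfatase that edits heparan sulfate (chr1:12692277-12861192), measured 33.0, 31.7, 62.9 and 46.2 CPM against 24.7, 20.5, 29.8 and 27.0 CPM (log2 fold change -0.77, SE 0.206, and -0.34 without that pair). The vehicle libraries that were high for Fhad1, Rsph9 and Sulf1 were thus replicates 3 and 4, the pair with the most Oxt. All 12 tested markers of ependyma and motile cilia were lower in Sham + CD, none with p below 0.05 (median log2 fold change -0.17). Their mean log2 CPM was 2.52, 3.29, 3.10 and 3.23 in Sham + VH and 2.92, 3.10, 3.17 and 1.91 in Sham + CD. The groups thus overlapped, and Sham + CD replicate 4 stood lowest. Vehicle replicate 2 had the highest mean but the lowest Fhad1 of its group. The part of neighbouring tissue in the Fhad1, Rsph9 and Sulf1 differences was not tested. Ccdc66, Actr6 and the transcript AK192647 make up the 20, with log2 fold changes of -0.29, -0.21 and -0.81.

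Genes of mature oligodendrocytes and myelin held more differences in 1 direction than any of the other 29 lists. Of 30 listed genes, which leave out Gjc3 and Adamts4, 28 were higher in Sham + CD, 24 with p below 0.05, against 3.98% of all genes tested in that direction, and none was lower with p below 0.05. In 17 of them the groups did not overlap (2.88% of all genes in that direction). None was called by edgeR. The median log2 fold change of the list was 0.40, where that of all genes was -0.00.

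Among the structural proteins of myelin, Mbp, myelin basic protein, measured 5111, 3727, 4556 and 2670 CPM in Sham + VH and 5647, 5742, 5953 and 5315 CPM in Sham + CD, a log2 fold change of 0.50 (SE 0.165, adjusted p = 0.606). For Mobp, a basic protein of compact myelin, the groups overlapped by a small margin, with 1783, 1265, 1488 and 832 CPM against 1894, 1924, 2023 and 1777 CPM (log2 fold change 0.51, SE 0.18, and 0.33 without Sham + VH replicate 4). Mag, the myelin-associated glycoprotein that faces the axon, measured 388, 298, 340 and 211 CPM against 421, 451, 459 and 412 CPM (log2 fold change 0.50, SE 0.142). The surface protein Mog differed by 0.47 (SE 0.148) and Cnp, a nucleotide phosphodiesterase of myelin, by 0.40 (SE 0.122). In each of these genes the vehicle libraries had the same order, replicate 1 highest and replicate 4 lowest, and the candesartan libraries lay close together.

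Enzymes, junction proteins and regulators of the same cells went the same way. Ugt8a, which makes the galactolipids of myelin, differed by 0.44 (SE 0.114, adjusted p = 0.594). Aspa, the enzyme that splits N-acetylaspartate in oligodendrocytes, had the smallest p of the list (adjusted p = 0.494), at 28.3, 27.8, 29.1 and 21.8 CPM in vehicle and 32.3, 37.7, 33.4 and 37.8 CPM in candesartan libraries. The connexin Gjb1 differed by 0.52 (SE 0.171). Myrf, the transcription factor that turns on myelin genes, measured 117, 95.1, 87.7 and 65.0 CPM against 133, 119, 132 and 125 CPM, and Sox10, its upstream regulator, differed by 0.38 (SE 0.126). The lineage factors Olig1 and Olig2, which precursors also express, differed by 0.14 (SE 0.113) and 0.13 (SE 0.0977) with overlapping groups, and ran from 0.07 to 0.26 and from 0.09 to 0.22 with single libraries left out, the highest values without Sham + VH replicate 1. The 2 exceptions in sign were Nkx6-2 (-0.18, SE 0.148, and -0.09 without Sham + VH replicate 4) and Enpp2 (-1.08, SE 0.52). Enpp2, which encodes autotaxin and is also abundant in the choroid plexus, measured 679, 219, 1888 and 175 CPM in vehicle libraries, with its 2 highest values in the 2 libraries of highest Ttr, and its log2 fold change was -0.04 without Sham + VH replicate 3.

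The summed level of the 30 genes was 14061, 10467, 13697 and 7594 CPM in Sham + VH and 14792, 15435, 15815 and 14345 CPM in Sham + CD, so that the groups did not overlap, but vehicle replicate 1 lay below the lowest candesartan library by less than the SD of the candesartan group (655 CPM). Sham + VH replicate 4 was the lowest of the 8 libraries in 27 of the 30 genes, and Sham + VH replicate 1 the highest vehicle library in 27 of 30. Without replicate 4 the list median was 0.29 and 20 genes had p below 0.05. With replicates 3 and 4 both left out, the pair with the highest hypothalamic scores, it was 0.28 with 12 genes below 0.05. Without replicate 1 it was 0.54 with 28 genes. Replicate 4 also held the most Gh, Prl and Pomc and the least Prkcd, a marker of relay neurons (390 CPM against 692 to 881 CPM in the other 7). Rora was lowest there too (286 CPM against 331 to 429 CPM). Slc17a6 (584 CPM against 453 to 599 CPM) and Tcf7l2 (257 CPM against 229 to 335 CPM) lay within the range of the others. The part of dissection in the myelin difference was not tested. In bulk tissue, fewer oligodendrocytes and less myelin RNA per cell cannot be told apart.

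**Figure D2:**
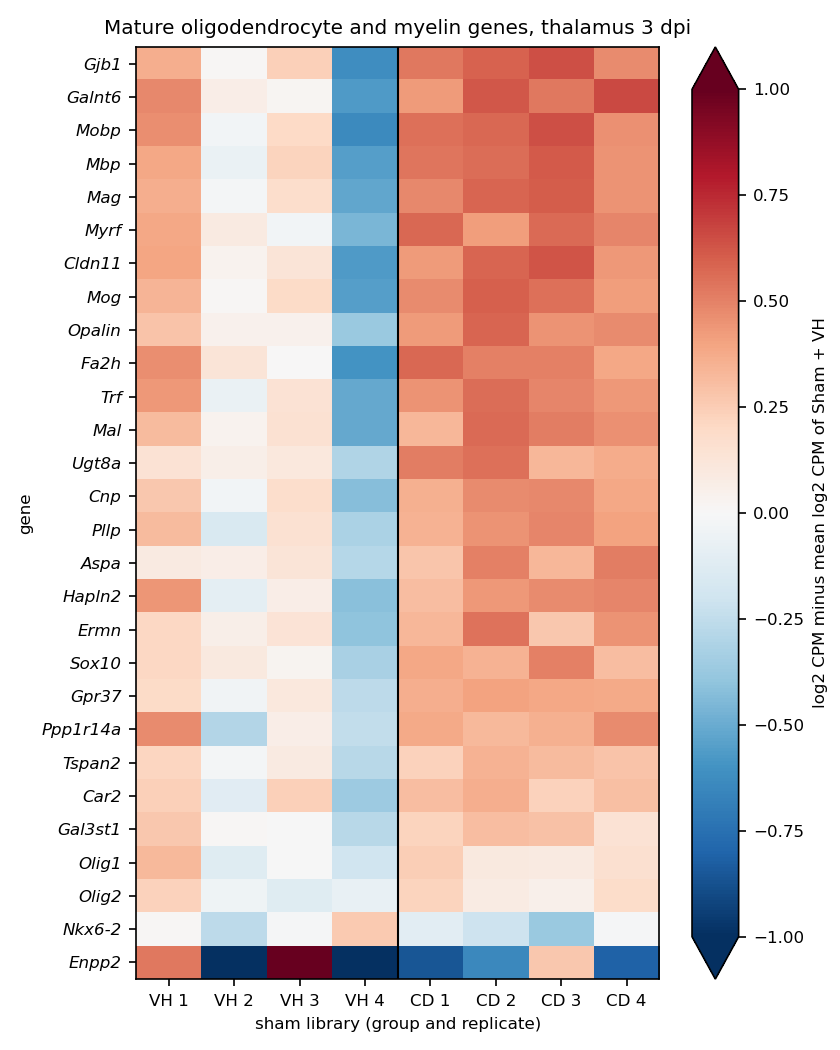
Each row is 1 of 28 genes of the mature oligodendrocyte and myelin list and each column a sham thalamic library (VH 1 to 4, then CD 1 to 4). Color gives log2 CPM minus the mean log2 CPM of the 4 Sham + VH libraries, red above and blue below, with arrows on the scale for values beyond 1. The 4 candesartan columns are red in every row but Nkx6-2 and Enpp2 at the bottom, VH 4 is the bluest column in most rows, and VH 1 is red in most.

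Promoters of this group were read because its members differed together, a choice made after the values were seen. The RefSeq promoter table (GRCm38.p6, 250 bases before to 50 bases after a start site) held 29 promoters for 20 of the 30 genes. The core of the SOX binding sequence, ACAAAG, was searched for on both strands, as Sox10 is the SOX factor of this lineage. It was found in 9 of the 29 (31%), in 2114 of 14845 promoters of genes tested (14.2%) and in 6146 of 32841 promoters of the table (18.7%). Counted by gene, since overlapping promoters of a gene can share a match (as for Mag), it was found for 7 of 20 genes (35%), against 1951 of 11634 genes tested (16.8%). The AP-1 motif TGANTCA and the cAMP response element TGACGTCA were in 0 of the 29, against 5.22% and 2.86% of the promoters of genes tested. Of the genes called by DESeq2, 6 of 9 had entries. Among their 18 promoters 2 (11.1%), those of 2 of the 6 genes (33.3%), held ACAAAG, and TGANTCA was likewise found for 2 of the 6 genes (33.3%, against 6.27% of genes tested). Promoters of Gjc3, Mag, Cnp and Mobp are shown to set a gene called by DESeq2 beside 3 genes of the myelin list. They read 5′ to 3′ on the strand of the gene, with the matches in capitals (CTTTGT is ACAAAG on the other strand), and they lie at chr5:137963049-137963348 (minus), chr7:30914814-30915113 (minus), chr11:100574689-100574988 (plus) and chr9:120149492-120149791 (plus).
Gjc3: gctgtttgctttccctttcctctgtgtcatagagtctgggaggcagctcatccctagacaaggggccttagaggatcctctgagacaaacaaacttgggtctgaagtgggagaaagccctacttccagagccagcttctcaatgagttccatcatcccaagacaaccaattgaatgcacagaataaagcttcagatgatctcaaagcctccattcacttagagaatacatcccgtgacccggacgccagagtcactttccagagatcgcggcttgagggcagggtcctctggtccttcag
Mag: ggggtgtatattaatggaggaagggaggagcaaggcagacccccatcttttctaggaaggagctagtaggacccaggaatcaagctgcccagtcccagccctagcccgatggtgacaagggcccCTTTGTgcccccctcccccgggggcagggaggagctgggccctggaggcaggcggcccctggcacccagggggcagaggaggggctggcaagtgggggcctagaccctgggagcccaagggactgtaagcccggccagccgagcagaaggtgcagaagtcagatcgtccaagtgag
Cnp: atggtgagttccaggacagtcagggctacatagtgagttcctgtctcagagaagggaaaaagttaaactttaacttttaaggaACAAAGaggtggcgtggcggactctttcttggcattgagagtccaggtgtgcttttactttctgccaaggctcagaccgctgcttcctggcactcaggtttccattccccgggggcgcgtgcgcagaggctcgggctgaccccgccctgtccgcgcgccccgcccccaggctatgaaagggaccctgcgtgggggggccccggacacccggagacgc
Mobp: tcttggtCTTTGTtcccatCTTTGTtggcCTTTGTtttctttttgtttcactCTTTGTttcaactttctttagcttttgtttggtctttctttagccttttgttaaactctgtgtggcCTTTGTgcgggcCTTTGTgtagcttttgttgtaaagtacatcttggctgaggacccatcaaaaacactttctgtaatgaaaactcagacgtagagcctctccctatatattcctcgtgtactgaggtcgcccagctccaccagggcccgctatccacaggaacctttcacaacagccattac
The Gjc3 promoter held no match, Mag held 1 at position -126 from its start site, Cnp 1 at -167 and Mobp 6. The log2 fold changes of these genes were 0.46, 0.50, 0.40 and 0.51, so the number of matches did not order them.

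Earlier stages of the lineage had a smaller list median. Of 14 markers of precursors and newly formed oligodendrocytes, 11 were higher in Sham + CD, 4 with p below 0.05 (3.98% of all genes in that direction) and 3 without overlap (2.88%), with a list median of 0.09. Pdgfra, the growth factor receptor that defines precursors, was at 67.7 to 71.5 CPM with vehicle and 65.4 to 73.6 CPM with candesartan (log2 fold change 0.00, SE 0.0468). Gpr17, a receptor of cells that are leaving the precursor stage, measured 79.1, 83.7, 85.5 and 79.3 CPM against 89.2, 93.1, 92.1 and 90.8 CPM (log2 fold change 0.16, SE 0.0454, adjusted p = 0.594). Enpp6 and Bcas1, which mark newly formed and early myelinating cells, differed by 0.56 (SE 0.164) and 0.44 (SE 0.14), and in both Sham + VH replicate 4 was the lowest library. The fourth was Itpr2 at 0.16 (SE 0.0665).

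Markers of other cell types are read against 3.98% of all genes higher and 2.89% lower with p below 0.05, and 2.88% higher without overlap. Of 18 microglial markers 16 were higher (median 0.12), 3 without overlap, and 1, the transcription factor Sall1, had p below 0.05 at 24.5, 23.0, 21.5 and 19.7 CPM in vehicle and 27.1, 25.8, 28.2 and 29.0 CPM in candesartan libraries (log2 fold change 0.31, SE 0.0907). Of 14 astrocyte markers 8 were higher, and the glutamate transporter Slc1a3 was the 1 with p below 0.05, lower at 537, 557, 567 and 621 CPM against 461, 483, 455 and 514 CPM (log2 fold change -0.25, SE 0.0859). Of 12 endothelial markers 11 and of 10 mural markers 8 were higher, none with p below 0.05. Of 16 relay neuron markers 11 were higher, 2 without overlap and none of the 11 with p below 0.05. Calb2, the calcium buffer calretinin that marks midline thalamic neurons, was lower without overlap at 363, 439, 404 and 531 CPM against 348, 245, 283 and 284 CPM (log2 fold change -0.58, SE 0.186, adjusted p = 0.6), with Sham + VH replicate 4 again the extreme library. GABA neuron markers were higher in 9 of 10 (median 0.28) and habenular markers in 10 of 10 (median 0.24), none with p below 0.05.

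Choroid plexus and hypothalamic markers had larger list medians and a wider spread within groups than thalamic relay neuron markers. All 15 tested of 17 choroid plexus genes were lower in Sham + CD, 5 with p below 0.05 (Kl, Folr1, Kcnj13, Slc4a5 and Clic6), against 2.89% of all genes in that direction, with a list median of -1.57. Their summed level ran from 73.4 to 3576 CPM in vehicle and from 62.4 to 764 CPM in candesartan libraries, so the groups overlapped, and the vehicle libraries reached far higher values. Without Sham + VH replicate 3 the median was -0.30 and without Sham + CD replicate 3 it was -2.91. Of 7 tested hypothalamic neuron markers 5 were lower, 2 with p below 0.05 (Oxt and Pomc), with a median of -1.40, which was -0.62 without Sham + VH replicate 4 and 0.29 without replicates 3 and 4 of that group. Pmch (0.35, SE 0.927) and Hcrt (0.37, SE 0.958) were the 2 that were higher. The summed hypothalamic level was 477, 35.5, 472 and 358 CPM with vehicle and 226 to 362 CPM with candesartan. By the sum vehicle replicate 1 was thus highest, whereas by the list score replicates 3 and 4 were (4.76 and 5.14). With the choroid plexus score of each library as a covariate edgeR called 0 genes, as it did without the covariate. The 20 genes above kept their direction, but they had been chosen for groups without overlap in these same libraries. The part of choroid plexus in their differences was not tested.

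**Figure D3:**
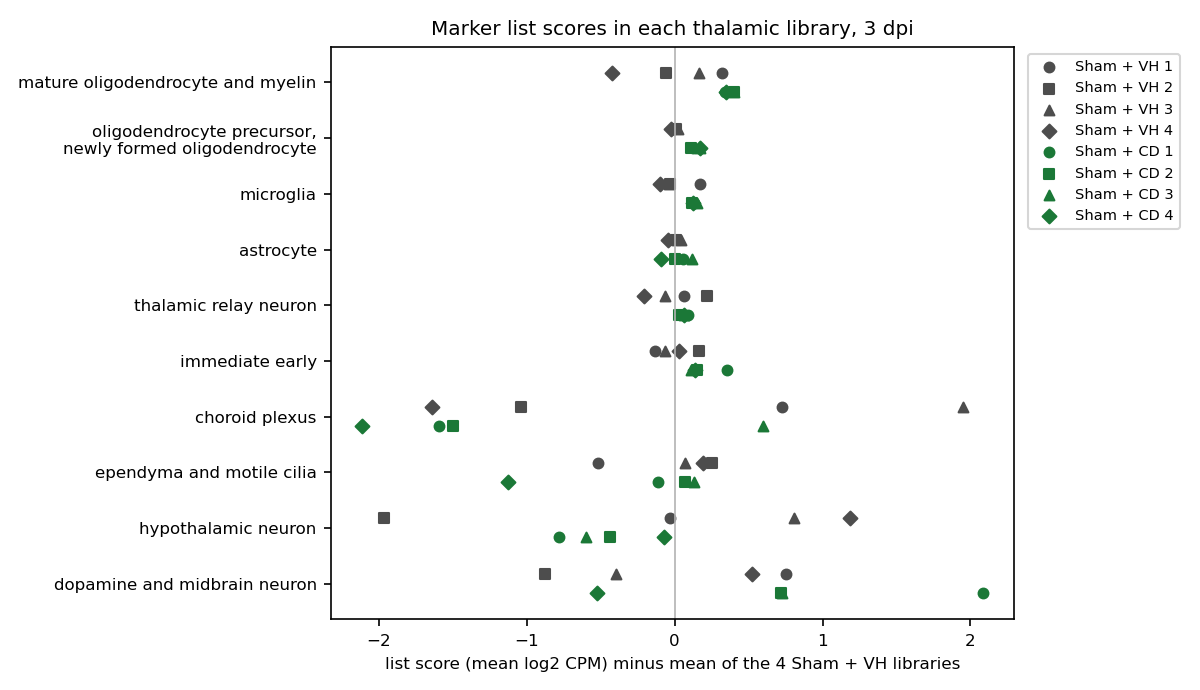
Score of 10 gene lists (rows) in each sham thalamic library at 3 dpi, as mean log2 CPM of the list minus the mean of the 4 Sham + VH libraries (horizontal axis). Symbols give the replicate and color the group, grey for Sham + VH and green for Sham + CD. The myelin scores of Sham + CD fall together (7.06 to 7.12 before centering) while those of Sham + VH run from 6.30 to 7.04, and choroid plexus and hypothalamic scores spread far more than those of glia and relay neurons.

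The renin-angiotensin system, the target of the drug, was measured through 17 of 21 listed genes. The others were Agtr1b, Mas1 and Cma1, with 53, 52 and 16 counts in the 8 libraries together and too low to test, and Ren1, which is not in the count table. Agtr1a, the main gene of the receptor that candesartan blocks, was near the detection limit at 0.409, 0.38, 0.837 and 0.986 CPM in vehicle and 0.37, 0.464, 0.291 and 0.55 CPM in candesartan libraries. Its log2 fold change of -0.64 had an SE of 0.647, and it was 0.07 without Sham + VH replicates 3 and 4. Agtr2, the type 2 receptor gene, was at 0.761 to 1.92 CPM (log2 fold change -0.01, SE 0.264). The sign of Agtr2 changed with the fit and is not read here.

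Of the 17 genes, 1 was higher and 3 were lower with p below 0.05, against 3.98% and 2.89% of all genes, and the median was -0.01. The precursor gene Agt (chr8:124556534-124569706) was lower without overlap, at 291, 272, 314 and 286 CPM in vehicle and 253, 246, 261 and 239 CPM in candesartan libraries (log2 fold change -0.22, SE 0.0839, adjusted p = 0.649), and stayed between -0.25 and -0.17 in every fit made. Ace, the converting enzyme (chr11:105967945-105989964), which endothelium and choroid plexus express, measured 40.7, 26.9, 67.9 and 43.4 CPM against 29.1, 24.6, 36.8 and 28.3 CPM (log2 fold change -0.59, SE 0.228, adjusted p = 0.649). Its highest library was Sham + VH replicate 3, the one with most Ttr. The log2 fold change was -0.32 without it and -0.19 without replicates 3 and 4 of that group. Prcp, a carboxypeptidase that also cuts angiotensin II, differed by -0.25 (SE 0.101) with overlap. The other 13 genes had p above 0.05, among them Atp6ap2, the renin receptor gene, at 0.04 (SE 0.0799).

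**Figure D4:**
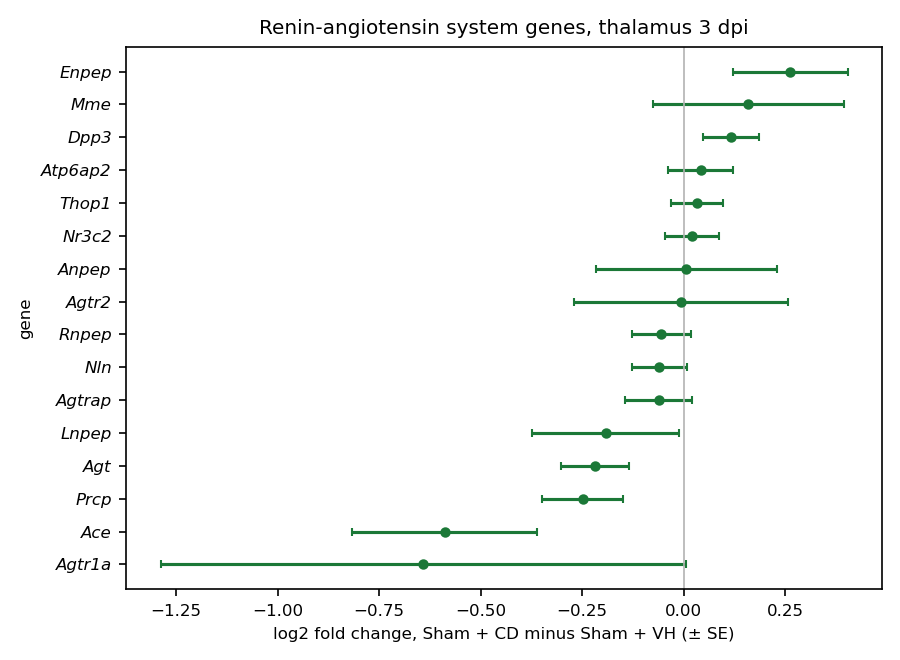
Log2 fold change, Sham + CD minus Sham + VH (horizontal axis), of 16 renin-angiotensin genes tested in the sham thalamus at 3 dpi, with bars of ± 1 SE. Enpep stands farthest to the right at 0.26, Ace and Agtr1a farthest to the left at -0.59 and -0.64, and Agtr1a has the widest bar, 0.647 to each side.

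Immediate early genes, which neurons transcribe within minutes of activity, were higher in 16 of 20 (median 0.16), with 5 at p below 0.05 (3.98% of all genes in that direction) and none lower at that level. Egr1, a zinc-finger factor, measured 33.9, 37.9, 27.2 and 33.7 CPM in vehicle and 56.9, 52.0, 40.7 and 46.0 CPM in candesartan libraries (log2 fold change 0.56, SE 0.143, adjusted p = 0.575), without overlap. Arc, which regulates glutamate receptors at synapses, measured 28.9, 22.6, 24.2 and 17.6 CPM against 33.8, 37.1, 32.2 and 31.3 CPM (log2 fold change 0.53, SE 0.179). Dusp1, a phosphatase of MAP kinases, differed by 0.55 (SE 0.259), Egr3 by 0.42 (SE 0.182) and the nuclear receptor Nr4a1 by 0.36 (SE 0.143). Fos, the classic member of the list, was at 10.8 to 20.9 CPM and 11.4 to 24.9 CPM (log2 fold change 0.19, SE 0.231). Leaving out single libraries left 2 to 5 genes of the list with p below 0.05 and a median of 0.08 to 0.21, and the lowest median came without Sham + CD replicate 1, the highest library for Egr1 and Dusp1.

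Of 15 ion channel genes of fast and rhythmic firing, 10 were higher and 6 had p below 0.05, all of them higher (3.98% of all genes in that direction), with a median of 0.12. These were the potassium channels Kcna1 (0.40, SE 0.176), Kcna2 (0.24, SE 0.081) and Kcnc1 (0.25, SE 0.0865), the pacemaker channel Hcn2 (0.30, SE 0.112) and the sodium channels Scn1a (0.22) and Scn8a (0.20). Kcna1 was lowest in Sham + VH replicate 4, at 90.4 CPM against 130 to 168 CPM in the other vehicle libraries. Without that library Kcna1 was at 0.24 and Scn1a at 0.15, and 1 of the 15 genes had p below 0.05, without Sham + CD replicate 4 there were 2, and without Sham + VH replicate 2 the median was 0.25.

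Other groups gave smaller counts, to be read against 3.98% of all genes higher and 2.89% lower with p below 0.05. Of 18 cholesterol synthesis genes 17 were lower (median -0.09). Fdft1 (-0.23, SE 0.102) and Fdps (-0.21, SE 0.0961), which make squalene and farnesyl diphosphate respectively, had p below 0.05. Among 18 glucocorticoid-responsive genes, Ddit4 (0.31), Nfkbia (0.27) and Arl4d (0.59) were higher at that level and none was lower. Without Sham + CD replicate 4 these values were 0.20, 0.18 and 0.31. Of 10 connexins 3 had p below 0.05, among them the oligodendrocyte connexins Gjc3 and Gjb1. Of 21 ADAMTS proteases and lecticans Adamts4 and Adamts3 (0.19), and of 13 axonal kinesins Kif13b and Kif5a (0.27), were higher with p below 0.05. Among 17 vasoactive genes the endothelin receptor Ednra was higher (0.31, SE 0.144), and the natriuretic clearance receptor Npr3 was lower (-1.09, SE 0.441) with its top value, 8.72 CPM, in Sham + VH replicate 3, without which the difference was -0.55. The interferon, clock, cell cycle, nuclear RNA, mural, fibroblast, blood, striatal and hippocampal lists had no gene with p below 0.05.

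In injured mice of the same time point, the 20 genes differed less between candesartan and vehicle. TBI + CD minus TBI + VH gave 0 called genes (0%) and 344 with p below 0.05 (2.05%), 168 higher (1%) and 176 lower (1.05%). In all 20 genes the log2 fold change was smaller in size there than in sham mice, between -0.39 for En2 and 0.29 for AK192647, and 13 lay within 1 SE of 0. Kif13b was at -0.04 (SE 0.0827), Rasgrp3 at -0.05 (SE 0.0735) and Gjc3 at 0.08 (SE 0.0919). The 20 genes were chosen on the sham contrast, which the interaction contains, so their counts are a description. The interaction of candesartan and injury called 0 genes (0%), with a smallest FDR of 0.9999 and 386 genes at an unadjusted p below 0.05 (2.3%), 147 positive (0.877%) and 239 negative (1.43%), so none of the differences between sham and injured mice passed. At the unadjusted level 15 of the 20 had p below 0.05, with an interaction on the log2 scale of -0.43 for Rasgrp3, -0.47 for Kif13b, -0.33 for Zeb2 and -1.45 for En2. The 30 myelin genes had a median of 0.04 in injured mice with none at p below 0.05, and the interaction was negative for 28 of them, 7 with p below 0.05. Agt, lower in sham mice, was at 0.12 (SE 0.0838) in injured mice (interaction 0.34, with p below 0.05).

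**Figure D5:**
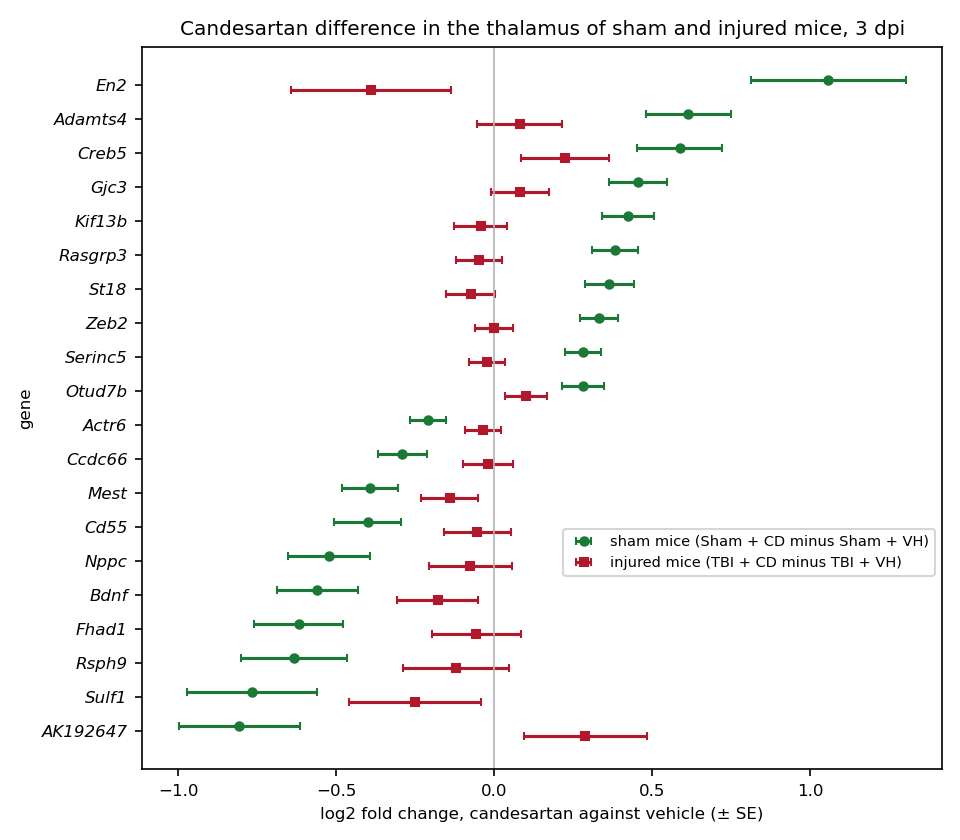
Log2 fold change of candesartan against vehicle (horizontal axis, ± 1 SE) for the 20 genes of smallest p without overlap in sham mice (green circles) and for the same genes in injured mice (red squares), thalamus at 3 dpi. Green points lie away from 0 because they chose the genes, and red points run from -0.39 to 0.29 with 13 of 20 within 1 SE of 0.

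The same genes were read in other sham tissue. In the hippocampus at 3 dpi, in a fit of all 48 libraries of that time, Sham + CD and Sham + VH differed by 404 called genes (2.27%), with 16.1% of genes at p below 0.05 (9.08% higher and 7.04% lower), and in the hypothalamus by 0 (0%), with 347 at p below 0.05 (1.95%, with 1.17% higher and 0.781% lower). Kif13b, Gjc3 and Adamts4 were at -0.00 (SE 0.117), -0.01 (SE 0.187) and -0.01 (SE 0.211) in the hippocampus and at -0.02 (SE 0.114), -0.06 (SE 0.183) and 0.07 (SE 0.205) in the hypothalamus. Zeb2 was higher in the hippocampus as in the thalamus (0.29, SE 0.0983), Fhad1 (-0.96, SE 0.219) and Mest (-0.43, SE 0.144) were lower in both, and Bdnf was at 0.14 (SE 0.125) in the hippocampus. Of the 12 markers of ependyma and motile cilia 0 were higher in the hippocampus (median -1.07) and 5 were lower with p below 0.05, against 7.04% of all genes, and their part in the Fhad1 value was not tested. Of the 20 immediate early genes, 20 were higher in the hippocampus (median 0.20), 5 with p below 0.05, against 9.08% of all genes. In the hypothalamus 18 of 20 were higher (median 0.18), 1 with p below 0.05, against 1.17%. Of the 15 ion channel genes, 13 were higher in the hippocampus (median 0.21), 8 with p below 0.05. In the hypothalamus 6 were higher (median -0.01), none with p below 0.05. The myelin list had a median of -0.18 in the hippocampus, where 0 of 30 genes were higher, and of 0.02 in the hypothalamus. The thalamic minus hippocampal difference was positive with p below 0.05 for 8 of the 30 (5.08% of all genes, where 6.67% were negative), among them Mag (0.69) and Opalin (0.72), and called for none.

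Tested across all genes, the candesartan difference in the thalamus differed from that in the hippocampus for 32 of 17788 genes (0.18%), 30 of them with a higher value in the thalamus, a count that ran from 10 to 223 with single libraries left out and was 1 in a fit of only the libraries compared, and from that in the hypothalamus for 0 (0%), with 594 at p below 0.05 (3.34%, with 1.47% higher and 1.87% lower in the thalamus). Sulf1 was the 1 gene of the 20 among the 32, with a difference of 2.35 between -0.77 in the thalamus and -3.11 in the hippocampus. The choroid plexus list had a median of -4.41 in the sham hippocampus, with all 15 genes at p below 0.05, and 2 of its genes, Otx2 and Prlr, were among the 32. The part of choroid plexus in that difference was not tested. Ace, too, was lower in the hippocampus (-2.91, SE 0.437).

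At 29 dpi, in other sham mice after minipump delivery, 0 of 16957 thalamic genes were called (0%) and 540 had p below 0.05 (3.18%), 244 higher (1.44%) and 296 lower (1.75%). Rasgrp3 was at 0.28 (SE 0.118), Adamts4 at 0.21 (SE 0.112), Gjc3 at 0.15 (SE 0.0897) and Kif13b at 0.09 (SE 0.0863), while Zeb2 was at -0.09 (SE 0.15). The myelin list had a median of 0.16, with 29 of 30 genes higher and 2 at p below 0.05. The choroid plexus median was -1.51 and the ependymal median -0.39, again lower in Sham + CD. Route, duration and mice differ between the time points, and whether the myelin values at 3 and 29 dpi differ was not tested.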

How the data were processed

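The authors deposited 1 table per time point of whole-number read counts per gene for 32594 gene symbols, without normalization. Per the labels, libraries were made with a stranded mRNA kit, and the authors aligned paired reads of 75 bases to mm10 with MapSplice and counted them with HTSeq 0.9.1. The annotation and the strand setting are not given in the sources used here, so counts of overlapping genes (Zeb2, Adamts4 and Mest among them) and paralogs are uncertain. Columns were matched to samples by name, with 0 left over. Depth is given with the first results.

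Genes were kept by filterByExpr on the 4 thalamic groups at 3 dpi. The 16 libraries were scaled by TMM and compared, 2-sided, by the quasi-likelihood F test of edgeR 4.0.16 (R 4.3.3, limma 3.58.1). The interaction used the same fit, the regions a fit of 48 libraries treated as independent, since the labels do not tie regions to mice, and 29 dpi its own 16 libraries. Every p is an edgeR p unless named otherwise. SE is the size of the log2 fold change divided by the square root of F. CPM are TMM-scaled, and log2 CPM has a prior count of 2. List scores average log2 CPM over the genes of a list.

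Named were the 10 higher and 10 lower genes of smallest p without overlap at a mean of at least 1 CPM, the genes the study's supplement lists for this comparison, the 4 most abundant of each of 30 lists and the renin-angiotensin genes. Some of these are not reported here by name and stay in the list counts. Members and lists were chosen with earlier results of these data known. The promoter search was planned for called genes alone and was widened after the values were seen.

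Alternatives were DESeq2 1.42.0 (also with shrunken fold changes), RLE factors, no filter, FDR alone, only the compared libraries, the replicate block, a choroid plexus covariate and leaving out each library. Added after the data were seen were voom with sample weights, a hypothalamic covariate and leaving out the Sham + VH pair of highest hypothalamic scores. Counts of libraries within a group differed by 5.30 to 27.4 times the sampling noise (chi-square per degree of freedom), so none was a repeat. Positions are from GENCODE vM21 (GRCm38), which holds 14898 of the 16762 symbols tested (88.9%).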

Additional observations from a re-analysis of the deposited data

Results flagged for a closer look

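A sample was set apart when its gap to the nearest of the other 3 in its group was larger, relative to the range of the group, than Dixon's 95% critical value. This was the case for 14 of 226 group checks of named genes and list scores, 4 in Sham + VH and 10 in Sham + CD, where chance gives about 5%.

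Sham + CD replicate 3 held more choroid plexus transcript than the other 3 candesartan libraries. It had 611 CPM of Ttr (the others 5.96 to 19.0), 22.5 CPM of Kl (1.75 to 2.66), 16.8 CPM of Clic6 (4.84 to 6.56), 6.77 CPM of Slc4a5 (0.55 to 0.676), 5.94 CPM of Folr1 (0.413 to 1.1) and 5.07 CPM of Kcnj13 (0.101 to 0.296). Enpp2, in the myelin list, was at 568 CPM there and at 260 to 302 CPM in the others, and Enpep, which makes angiotensin III, at 4.57 CPM against 3.56 to 3.72 CPM. In the vehicle group Enpep was at 3.88 CPM in replicate 2 and 2.99 to 3.08 CPM in the rest.

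The immediate early score of Sham + CD replicate 1 was 3.86, above 3.62 to 3.66 in the other candesartan libraries. The habenula score of Sham + CD replicate 4 was 3.68, below 5.18 to 5.41. In Sham + VH, replicate 1 had the lowest hippocampal neuron score, 2.34 against 2.96 to 3.05, and the lowest cholesterol synthesis score, 5.99 against 6.13 to 6.15, and replicate 2 the highest cell cycle score, 0.771 against 0.655 to 0.674.

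Sulf1 differed between regions by the interaction test of edgeR across all genes: the log2 fold change was -0.77 in the thalamus and -3.11 in the hippocampus, a difference of 2.35 (thalamus minus hippocampus), so it was the less negative in the thalamus.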

How the results depend on the processing

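With 4 libraries a group, a median SE of 0.0987 limits what can be seen: most log2 fold changes named here are under 0.6. The count of called genes was 0 with edgeR under RLE factors, no filter, FDR alone, the compared libraries alone, both covariates, voom with sample weights and each library left out, but 9 with DESeq2 and 5 with its shrunken fold changes. The cause was not tested. The difference between thalamus and hippocampus, 32 genes, was 87 with DESeq2, 89 with shrunken fold changes and 1 with only the libraries compared. It ran from 10 to 223 with single libraries left out, 223 without hippocampal Sham + VH replicate 3 and 10 without replicate 4 of thalamic or hippocampal Sham + VH. Interaction, hypothalamic difference and 29 dpi gave 0 in all fits made. The hypothalamic list median was 0.29 without the Sham + VH pair of highest hypothalamic scores, and the channel list median 0.071 to 0.25 with single libraries left out. Of 83 named genes 79 kept their sign in all 18 alternatives. Enpp2 (0.28), Ttr (0.13) and Agtr2 (0.10) turned positive with the choroid plexus covariate, Agtr2 with the hypothalamic covariate (0.061) and, with single libraries left out, between -0.21 and 0.23, and Agtr1a without the Sham + VH pair (0.072). With the replicate block 0 genes were called, 0 in the interaction and 41 between thalamus and hippocampus. Deviations of same-numbered libraries correlated at -0.0048 to 0.157, 3 of 4 above 0.1, and others at -0.202 to 0.0958, and since 1 of the 4 was not above 0.1 and the labels do not state what a number shares, pairing was neither assumed nor excluded.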
